A study of Mus musculus with 8 samples.

Results

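The metal and phosphate solute carriers are membrane proteins that move zinc, iron, copper, manganese, magnesium or inorganic phosphate across membranes. They were taken here as all protein-coding genes whose mouse symbol belongs to the Slc11, Slc20, Slc30, Slc31, Slc34, Slc39, Slc40 or Slc41 family. The rule found 37 genes among the 43629 gene identifiers counted in each embryo, and it used no measured value. Of these, 32 had 10 or more counts in 2 or more embryos of Control or of Mutant and were tested. The other 5, Slc30a2, Slc30a8, Slc34a1, Slc34a3 and Slc39a12, had fewer.

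RNA was sequenced from whole lower first molars of mouse embryos at E18.5, the left and right tooth of each embryo pooled. The Control group held 4 Jagged1 fl/fl embryos, named J3, J5, J6 and J7. The Mutant group held 4 embryos of genotype K14cre; Jagged1 fl/fl, named K14J26, K14J28, K14J29 and K14J30. By these labels both groups carried floxed Jagged1 alleles, whereas the methods of the study call the comparison embryos wild type. Cre was driven by the keratin 14 promoter, which is active in epithelium, so that the dental mesenchyme in the same RNA kept the gene. Jagged1 is a ligand of the Notch receptors. The Control embryos were littermates of the Mutant embryos, but neither the litter nor the sex of any embryo is given.

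Zinc enters the cytosol through the ZIP proteins of the Slc39 family and leaves it, towards the outside or into vesicles and the Golgi, through the ZnT proteins of the Slc30 family. Zinc is a cofactor of alkaline phosphatase and of the enamel matrix protease Mmp20, and the mineral of enamel and dentin is built from calcium and phosphate. Slc11a2 and Slc40a1 import and export iron, Slc31a1 imports copper, the Slc41 proteins carry magnesium, and the Slc20 and Slc34 proteins take up phosphate with sodium.

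Library totals ran from 17327224 to 28613574 counts in Control and from 24692128 to 29792467 in Mutant, and 3 counts corresponded to between 0.0998 and 0.166 CPM (counts after scaling to a common library size by the TMM method). Values per embryo are given in the order J3, J5, J6, J7 for Control and K14J26, K14J28, K14J29, K14J30 for Mutant. Jag1 itself was at 95.2, 103, 104 and 99.9 CPM in Control and at 34, 39, 46 and 57.1 CPM in Mutant, a log2 fold change of -1.19 (SE 0.14, adjusted p 0.00517). The summed level of 5 ameloblast markers (Amelx, Ambn, Enam, Mmp20 and Klk4) lay between 557 and 3254 CPM in Control and between 3503 and 114369 CPM in Mutant, with 4 of the 5 higher in Mutant. The 3 odontoblast markers summed to 4292 to 8090 CPM in Control and 7454 to 23483 CPM in Mutant (2 of 3 higher), while 4 of 5 dental mesenchyme markers were lower, with sums of 190 to 230 CPM in Control and 145 to 167 CPM in Mutant. Dental epithelium markers summed to 4657 to 5371 CPM in Control and 5486 to 8083 CPM in Mutant (1 of 6 higher, Krt14), and bone markers to 722 to 897 CPM in Control and 1005 to 1125 CPM in Mutant (2 of 4 higher). Osteoclast markers reached 1276 CPM in K14J28 and at most 416 CPM elsewhere. Skeletal muscle markers summed to 373 and 184 CPM in J6 and J7 and to at most 17.6 CPM in the other embryos. Xist was at 1930 and 1468 CPM in K14J28 and K14J29 and at most 1.09 CPM elsewhere. The part of these differences in the carrier results was not tested beyond the fits below that hold the enamel, muscle or Xist level as a covariate. In such bulk RNA, fewer cells of a type and less RNA per cell cannot be told apart.

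More carriers rose than fell in Mutant molars. With edgeR's quasi-likelihood test and Benjamini-Hochberg adjustment over the 17129 genes tested, 11 of the 32 tested carriers were higher in Mutant at an adjusted p under 0.05, where 9.52% of all genes tested were, and 1 was lower, against 6.61% of all genes. In both directions together this was 37.5% of the carriers and 16.1% of all genes. The median log2 fold change of the 32 carriers was 0.43, with 25 above 0 and 7 below, while the median of all genes tested was 0.01 and 50.7% of them were above 0. The values of Control and Mutant embryos did not overlap for 15 carriers, 13 of them higher and 2 lower, which is 46.9% of those tested and compares with 24.2% of all genes. The methods of the study do not state whether p was adjusted or on which scale its fold change criterion stood. Read as a log2 fold change of 0.5 or more in size with p not adjusted, these criteria gave 11 higher carriers (8.33% of all genes) and 0 lower (5.85% of all genes). Both these 11 and the 25 above 0 include Slc39a5, which met the count filter only through the Mutant group.

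The count depended on single embryos. Without K14J29 it was 0 higher and 0 lower, with 18 of 32 carriers and 4737 of 17129 genes at an unadjusted p under 0.05. Without J7 or J3 it was 1 higher, and without J5 it was 3 higher, none lower each time. Without K14J28 it was 20 higher and 2 lower, and with DESeq2 on all 8 embryos it was 18 higher and 1 lower. The 7 carriers that DESeq2 called and edgeR did not were Slc11a2, Slc20a2, Slc30a4, Slc39a3, Slc39a4, Slc39a11 and Slc41a3. The calls over all genes moved as well, from 1631 higher and 1133 lower to 237 and 160 without K14J29, 288 and 211 without J7, 373 and 286 without J3, 455 and 375 without J5, 2454 and 1845 without K14J28, and 2244 and 1718 with DESeq2. With an enamel score as a covariate, which is the mean log2 CPM of the 5 ameloblast markers and which did not overlap between the groups (at most 6.87 in Control and at least 6.94 in Mutant), edgeR called 0 carriers and 6 had an unadjusted p under 0.05. With a muscle score as a covariate, or without both J6 and J7, it also called 0, with 15 and 16 carriers at an unadjusted p under 0.05, and Xist as a covariate gave 12 higher and 0 lower. Over all genes, 186 were higher and 112 lower with the enamel score, 40 and 40 with the muscle score, 3 and 4 without J6 and J7, and 1515 and 801 with Xist. At an unadjusted p under 0.05 lay 3603 of 17129 genes with the enamel score, against 6 of 32 carriers. There were 4007 genes with the muscle score and 3554 without J6 and J7, against 15 and 16 carriers. Scaling by library size alone gave 7 higher and 1 lower carriers (855 and 1060 over all genes), and it moved the share of higher genes among all calls from 59.0% to 44.6%.

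**Figure D1:**
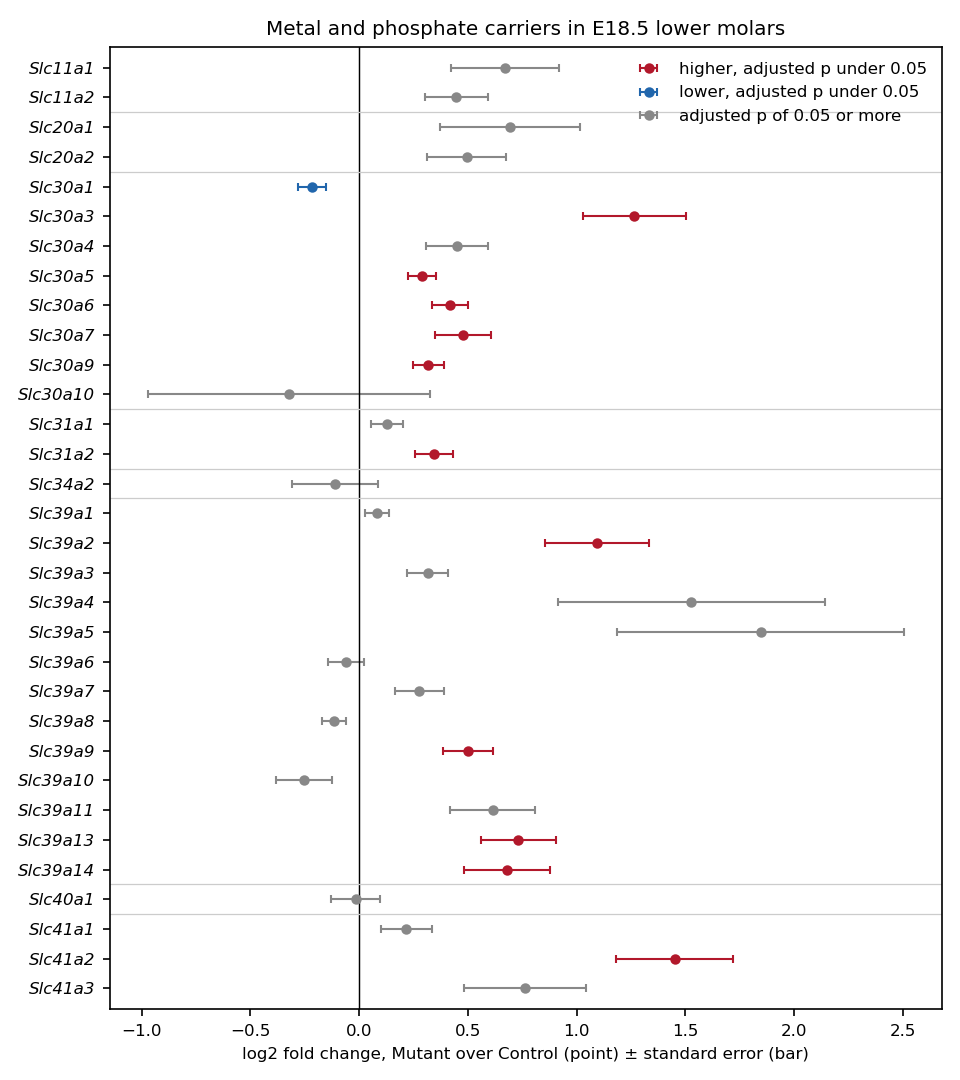
Log2 fold change, Mutant over Control, of the 32 tested carriers (points, 4 embryos per group) with its standard error (bars), on a linear axis and grouped by family. The 11 carriers past the test on the right (red) lie between 0.29 and 1.45, and Slc30a1 (blue) at -0.22.

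The promoters of the 2 carriers with the largest rises past the test, Slc41a2 and Slc30a3, and of the 1 carrier that fell, Slc30a1, are shown because the carriers moved in different directions and because the zinc sensor Mtf1, which binds metal response elements, was itself measured. Each line gives the 250 bases before a RefSeq start site on GRCm38.p6, 5′ to 3′ on the strand of the gene. Capitals mark the core of the metal response element, TGCACNC or TGCGCNC on either strand. The windows are chr10:83337818-83338067 (minus strand) for Slc41a2, chr5:31108245-31108494 (minus strand, one of 2 RefSeq starts) for Slc30a3 and chr1:191906531-191906780 (plus strand) for Slc30a1.
Slc41a2: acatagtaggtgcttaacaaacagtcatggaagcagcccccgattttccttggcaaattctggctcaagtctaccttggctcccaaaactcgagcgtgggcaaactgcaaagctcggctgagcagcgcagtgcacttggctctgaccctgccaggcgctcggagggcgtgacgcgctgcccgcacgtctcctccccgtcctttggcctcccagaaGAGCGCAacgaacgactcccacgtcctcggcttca
Slc30a3: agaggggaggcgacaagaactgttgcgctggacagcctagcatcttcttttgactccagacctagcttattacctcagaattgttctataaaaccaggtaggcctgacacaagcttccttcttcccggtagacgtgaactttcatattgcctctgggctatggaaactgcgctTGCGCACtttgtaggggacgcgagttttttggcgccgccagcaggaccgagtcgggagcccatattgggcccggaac
Slc30a1: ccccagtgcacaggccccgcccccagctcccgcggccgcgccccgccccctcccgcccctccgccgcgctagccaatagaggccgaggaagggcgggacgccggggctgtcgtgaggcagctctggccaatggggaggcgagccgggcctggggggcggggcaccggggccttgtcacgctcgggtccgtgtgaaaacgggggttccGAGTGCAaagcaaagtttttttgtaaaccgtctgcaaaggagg

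The core began 35 bases before the start site in Slc41a2, on the reverse strand, 77 bases before it in Slc30a3, on the forward strand, and 43 bases before it in Slc30a1, on the reverse strand. The window of the other RefSeq start of Slc30a3 had no core, and Slc30a1 had another core after its start site. RefSeq promoters of 300 bases (250 before and 50 after the start) were matched by symbol for 30 of the 37 carriers, in 36 windows. A core was found in 19 of these windows (52.8%), which belonged to 18 carriers, and in 25.7% of the 32851 windows of all genes. Among the 11 carriers past the test that had a promoter, 6 had a core, against 18 of all 30 carriers with a promoter. The share over all genes was counted per window and not per gene. A match to these letters is a description of the sequence and does not show that it is bound.

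The Slc30 family holds zinc exporters and the manganese exporter Slc30a10. Of its 8 tested members 5 rose and 1 fell, where 9.52% of all genes tested rose and 6.61% fell. Slc30a3 (chromosome 5, 31086106 to 31108237, GRCm38), which loads zinc into synaptic vesicles, was at 1.83, 2.39, 2.80 and 1.52 CPM in Control and at 6.01, 3.76, 6.03 and 4.70 CPM in Mutant, a log2 fold change of 1.27 (SE 0.24, adjusted p 0.0145). All Mutant embryos were above all Control embryos, at a low level in both groups. The 4 Schwann cell and nerve markers summed to 160.3 to 190.2 CPM in Control and 171 to 266 CPM in Mutant, with 1 of them, Tubb3, higher (log2 fold change 0.48, adjusted p 0.0448), and their part in the level of Slc30a3 was not tested. Slc30a3 passed the test in 7 of the 8 fits that left out 1 embryo, more often than any other carrier.

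Slc30a5, Slc30a6 and Slc30a7 carry zinc into the early secretory pathway, Slc30a5 and Slc30a6 as a heterodimer, where zinc is fitted into enzymes such as alkaline phosphatase. Slc30a5 (chromosome 13, 100802648 to 100833427) was at 67.2, 70.8, 73.9 and 71.1 CPM in Control and at 88.9, 81.3, 92.4 and 83.2 CPM in Mutant, a log2 fold change of 0.29 (SE 0.06, adjusted p 0.0211). Its partner Slc30a6 (chromosome 17, 74395608 to 74424221) was at 18, 19, 19.3 and 16.3 CPM in Control and at 24.3, 22.5, 24.5 and 25.7 CPM in Mutant (log2 fold change 0.42, SE 0.08, adjusted p 0.0162). Both rose by less than 1.5-fold with little spread between embryos of a group, and neither overlapped between the groups. Slc30a7 (chromosome 3, 115938973 to 116007406) stood at 78.0, 79.9, 86.7 and 80.1 CPM in Control and at 142, 91.7, 120 and 97.5 CPM in Mutant (log2 fold change 0.48, SE 0.13, adjusted p 0.0375). Here the Mutant embryos differed more among themselves, and the lowest of them, K14J28, was still above the highest Control embryo.

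Slc30a9 (chromosome 5, 67306955 to 67358443), a zinc carrier of mitochondria, was at 85.3, 79.5, 88.5 and 80.1 CPM in Control and at 108, 96.5, 112 and 98.8 CPM in Mutant, a log2 fold change of 0.32 (SE 0.07, adjusted p 0.0209). Again all Mutant embryos were higher. Slc30a1 (chromosome 1, 191906767 to 191913247), the zinc exporter of the plasma membrane, went the other way. It was at 52.5, 55.7, 56.9 and 55.4 CPM in Control and at 49.9, 47.8, 48.8 and 43.3 CPM in Mutant, a log2 fold change of -0.22 (SE 0.06, adjusted p 0.0498). All Mutant embryos were below all Control embryos, but the call held in only 2 of the 8 fits that left out 1 embryo, those without K14J26 and without K14J28. Slc30a1 shares 468 exon bases with the antisense gene 1700034H15Rik, and since the library kit does not mark strand, reads of the shared stretch cannot be assigned to either.

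Slc30a4, which moves zinc into endosomes and secretory vesicles, had the highest level of the family per length of exon, at 37.9 ± 3.18 CPM per kilobase in Control and 51.8 ± 11.5 in Mutant (SD, n = 4). It was at 188, 210, 230 and 203 CPM in Control and at 365, 228, 303 and 240 CPM in Mutant, with a log2 fold change of 0.45 (SE 0.14) and an adjusted p of 0.0603. The groups overlapped, since K14J28 was below J6. Slc30a10 was at 0.623 to 0.783 CPM in Control and at 0, 1.06, 0.797 and 0.349 CPM in Mutant (log2 fold change -0.32, SE 0.65, adjusted p 0.756). Of the 2 untested members of the family, Slc30a2 had 1, 9, 7 and 10 counts in Control and 0, 4, 3 and 1 in Mutant, and Slc30a8 had 6 counts in K14J29 and 0 in every other embryo.

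**Figure D2:**
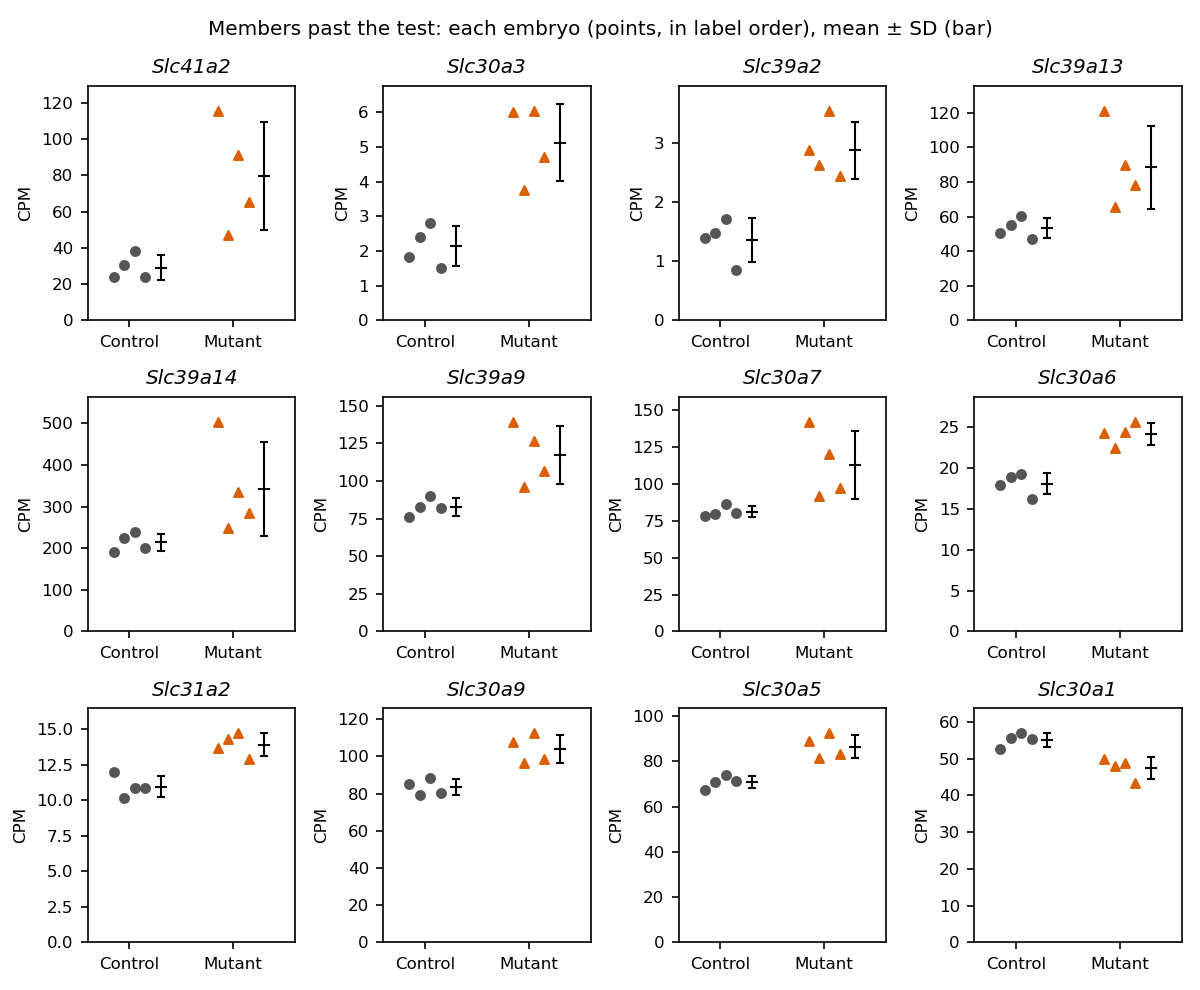
CPM of the 12 carriers past the test in each Control (circles) and Mutant (triangles) embryo, in label order, with the mean ± SD of 4 embryos (bars) on linear axes that start at 0. In all 12 panels the Control and Mutant points are separate. K14J26 is the highest Mutant embryo for Slc41a2, Slc39a13, Slc39a14, Slc39a9 and Slc30a7, and also for Slc30a1, which fell.

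Among the zinc importers of the Slc39 family, 4 of 13 tested rose (30.8%, where 9.52% of all genes rose), and none was lower by edgeR's test, at an unadjusted p under 0.05 or by DESeq2. Slc39a14 (chromosome 14, 70303469 to 70351425), which also carries manganese and iron, was the most abundant of these 4, at 191, 225, 238 and 201 CPM in Control and at 503, 247, 336 and 285 CPM in Mutant. The log2 fold change was 0.68 (SE 0.20, adjusted p 0.0458). The lowest Mutant embryo, K14J28, was just above the highest Control embryo, J6, while K14J26 was at 2.35 times the Control mean. Slc39a14 was past the test in 2 of the 8 fits that left out 1 embryo.

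Slc39a13 (chromosome 2, 91061791 to 91070417), a carrier of the Golgi and of vesicles that is needed for connective tissue, bone and tooth development, was at 50.5, 55.4, 60.2 and 46.9 CPM in Control and at 121, 65.3, 89.7 and 78.1 CPM in Mutant (log2 fold change 0.73, SE 0.17, adjusted p 0.0259). Slc39a9 (chromosome 12, 80643883 to 80683342), a carrier of the Golgi and the plasma membrane, was at 75.8, 83.0, 89.9 and 82.2 CPM in Control and at 139, 96.1, 126 and 107 CPM in Mutant (log2 fold change 0.50, SE 0.11, adjusted p 0.0234). Both showed the same order of Mutant embryos as Slc39a14, with K14J26 highest and K14J28 lowest. Slc39a13 shares 215 exon bases on the opposite strand with Psmc3 and Slc39a9 shares 459 with Erh. The log2 fold changes of these neighbours were -0.02 and -0.37, and neither passed the test (adjusted p 0.817 and 0.0613).

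Slc39a2 (chromosome 14, 51892889 to 51896745), a zinc importer of the plasma membrane, was at 1.38, 1.48, 1.71 and 0.845 CPM in Control and at 2.88, 2.63, 3.54 and 2.44 CPM in Mutant. This gave a log2 fold change of 1.10 (SE 0.24, adjusted p 0.0211) at a low level, with no overlap between the groups. It shares 151 exon bases on the same strand with Mettl17, whose log2 fold change was 0.12 (adjusted p 0.2).

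The most abundant importers per length of exon were not among those that rose. Slc39a7, an importer of the endoplasmic reticulum and Golgi, headed all carriers with 81.3 ± 5.62 CPM per kilobase in Control and 98.6 ± 16.3 in Mutant (SD, n = 4). It was at 204, 208, 231 and 198 CPM in Control and at 305, 203, 262 and 249.1 CPM in Mutant (log2 fold change 0.28, SE 0.11, adjusted p 0.12), with K14J28 inside the Control range. Its value is uncertain, since 80.7% of its exon bases are shared on the same strand with the transcript Gm20427. Slc39a8, an importer of zinc and manganese, was at 379, 371, 372 and 352 CPM in Control and at 350, 340, 351 and 319 CPM in Mutant. All 4 Mutant embryos were just below the lowest Control embryo, and the log2 fold change of -0.11 (SE 0.06) did not pass the test (adjusted p 0.182).

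Slc39a6 and Slc39a10, related importers of the plasma membrane, had log2 fold changes of -0.06 (SE 0.08, adjusted p 0.64) and -0.25 (SE 0.13, adjusted p 0.192). Slc39a10 was at 274, 264, 222 and 296 CPM in Control and at 197, 274, 191 and 223 CPM in Mutant. K14J28 and K14J30 lay inside the Control range and the other 2 below it. Slc39a1 and Slc39a3, importers of the plasma membrane, had values of 0.08 (adjusted p 0.311) and 0.32 (adjusted p 0.0509), and the sign for Slc39a1 flipped to -0.02 when only library size was used for scaling. Slc39a11, another zinc importer, was at 36.8, 42.4, 46.9 and 36.5 CPM in Control and at 85.5, 40.8, 65.7 and 57.0 CPM in Mutant (log2 fold change 0.61, SE 0.20, adjusted p 0.061).

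Slc39a4, the importer that takes up dietary zinc in the gut, had a wide spread, at 1.27, 2.02, 1.82 and 1.25 CPM in Control and at 11.8, 1.63, 3.29 and 1.90 CPM in Mutant. K14J26 was at 7.41 times the Control mean, while K14J28 and K14J30 lay inside the Control range, and the log2 fold change of 1.53 (SE 0.61) did not pass the test (adjusted p 0.112). Without K14J26 it was 0.51 (adjusted p 0.246). Slc39a5 was near the floor, with 3, 1, 5 and 1 counts in Control and 12, 8, 19 and 5 counts in Mutant. It met the count filter only through the Mutant group, so its fold change is not read as a change. It was at 0.0338 to 0.259 CPM in Control and 0.194 to 0.658 CPM in Mutant (log2 fold change 1.85, SE 0.66, adjusted p 0.0833). Slc39a12 had at most 4 counts in any embryo and was not tested.

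**Figure D3:**
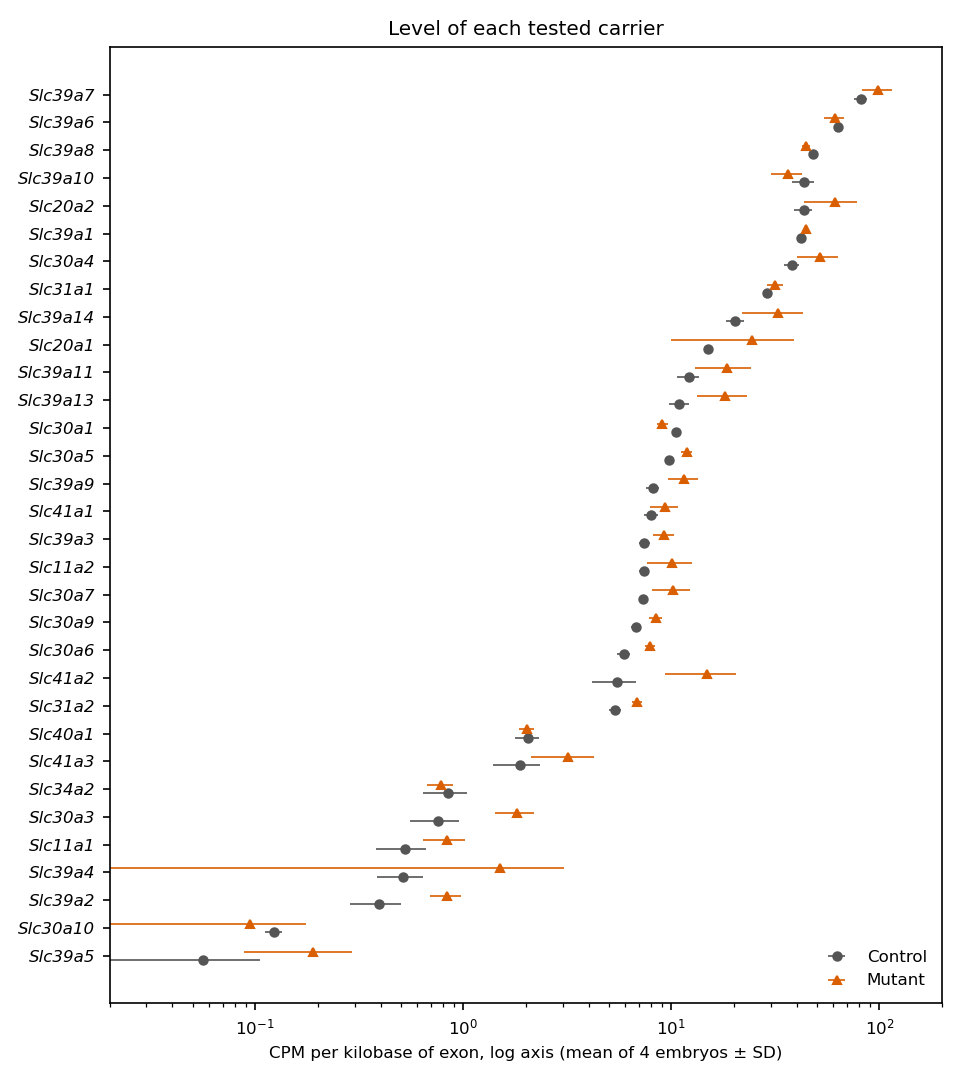
Level of the 32 tested carriers in CPM per kilobase of exon on a log axis, mean of 4 Control (circles) and 4 Mutant (triangles) embryos ± SD (bars), sorted by the Control mean. Slc39a7 is at the top with 81.3 and 98.6, Slc41a2 moves from 5.45 to 14.9, and the bars of Slc39a4, Slc30a10 and Slc39a5 that reach the left edge are cut there, where mean minus SD is near or below 0.

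Slc41a2 (chromosome 10, 83230848 to 83337882), a magnesium carrier, had the largest fold change of the carriers past the test. It was at 23.9, 30.8, 38.2 and 23.7 CPM in Control and at 115, 47.0, 91.0 and 65.5 CPM in Mutant, a log2 fold change of 1.45 (SE 0.27, adjusted p 0.0144). All Mutant embryos were higher than all Control embryos. Per length of exon, Slc41a2 went from 5.45 ± 1.28 CPM per kilobase in Control to 14.9 ± 5.58 in Mutant (SD, n = 4), from rank 22 to rank 13 of the 37 carriers. Without K14J26 its log2 fold change was 1.21 (adjusted p 0.0103), and with the enamel score as a covariate it was 0.43 (adjusted p 0.0576). The call was lost in 6 of the 19 alternatives run.

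The other magnesium carriers did not pass edgeR's test, and DESeq2 called Slc41a3 (adjusted p 0.0373). Slc41a3 was at 3.93, 6.89, 6.33 and 4.66 CPM in Control and at 11.7, 5.02, 11.6 and 8.81 CPM in Mutant (log2 fold change 0.76, SE 0.28, adjusted p 0.09). K14J28 lay inside the Control range and the other 3 Mutant embryos above it. Slc41a1 was the most abundant of the family per length of exon in Control, at 8.01 ± 0.631 CPM per kilobase (SD, n = 4), and was at 35.4, 38.4, 41.3 and 42.3 CPM in Control and at 54.3, 36.8, 47.1 and 45.1 CPM in Mutant (log2 fold change 0.22, SE 0.12, adjusted p 0.209).

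Among the phosphate carriers, 0 of the 3 tested passed edgeR's test, against 16.1% of all genes. At an unadjusted p under 0.05, where 34.9% of all genes lay, there was 1, Slc20a2, which DESeq2 called (adjusted p 0.0428). Slc20a2, the ubiquitous phosphate importer also known as PiT2, was at 262, 293, 287 and 234 CPM in Control and at 520, 263, 398 and 334 CPM in Mutant, with a log2 fold change of 0.49 (SE 0.18, adjusted p 0.0906). K14J28 was within the Control range and the other 3 Mutant embryos above it. Per length of exon it was the most abundant phosphate carrier, at 43.2 ± 4.28 CPM per kilobase in Control and 60.9 ± 17.5 in Mutant (SD, n = 4).

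Slc20a1, or PiT1, was nearly constant in Control, at 80.8, 85.2, 84.5 and 85.6 CPM, and was at 253, 84.1, 125 and 81.7 CPM in Mutant. K14J26 and K14J29 were above all Control embryos, while K14J28 and K14J30 were within the Control range. The log2 fold change of 0.69 (SE 0.32) did not pass the test (adjusted p 0.159), and without K14J26 it was 0.20 (adjusted p 0.307). Slc34a2, a phosphate importer of epithelia, was at 5.43, 4.25, 2.96 and 4.22 CPM in Control and at 4.33, 4.43, 3.57 and 3.30 CPM in Mutant (log2 fold change -0.11, SE 0.20, adjusted p 0.725). The kidney phosphate importers Slc34a1 and Slc34a3 had at most 9 and 2 counts in any embryo.

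Of the 2 copper carriers, 1 rose, where 9.52% of all genes tested did. Slc31a2 (chromosome 4, 62262562 to 62298411), a copper carrier of endosomes and lysosomes, was at 12.0, 10.2, 10.8 and 10.8 CPM in Control and at 13.7, 14.3, 14.7 and 12.9 CPM in Mutant (log2 fold change 0.34, SE 0.09, adjusted p 0.0333). The groups did not overlap, but the call was lost in 13 of the 19 alternatives run, more than for any other carrier past the test. The importer Slc31a1, which lies on the same chromosome, was the more abundant per length of exon, at 28.9 ± 1.20 CPM per kilobase in Control and 31.6 ± 2.65 in Mutant (SD, n = 4). It was at 118, 121, 130 and 125 CPM in Control and at 140, 119, 146 and 135 CPM in Mutant (log2 fold change 0.13, SE 0.07, adjusted p 0.233), with K14J28 inside the Control range.

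Of the 3 iron carriers, 0 passed edgeR's test, against 16.1% of all genes, and 2 had an unadjusted p under 0.05, against 34.9% of all genes. DESeq2 called 1 of these, Slc11a2 (adjusted p 0.0298). Slc11a2, or DMT1, imports ferrous iron and was at 45.1, 44.4, 48.0 and 49.6 CPM in Control and at 86.4, 54.4, 62.1 and 52.5 CPM in Mutant (log2 fold change 0.45, SE 0.15, adjusted p 0.0647). Slc11a1, an iron and manganese carrier of the phagosomes of macrophages, was at 1.83, 2.43, 2.23 and 1.25 CPM in Control and at 4.13, 2.56, 2.84 and 2.79 CPM in Mutant (log2 fold change 0.67, SE 0.25, adjusted p 0.0908). For both genes all Mutant embryos were above all Control embryos.

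Macrophage markers summed to 87.7 to 115 CPM in Control and 74.5 to 175 CPM in Mutant, highest in K14J28. They moved in both directions and 0 of 7 passed the test. Their log2 fold changes were 0.62 (Csf1r), 0.58 (Cd68), 0.56 (Cd14), -0.03 (Adgre1), -0.30 (C1qb), -0.34 (C1qa) and -0.40 (Mrc1). Their part in the level of Slc11a1 was not tested. Slc40a1, or ferroportin, the only known iron exporter, was at 14.8, 20.2, 20.03 and 18.6 CPM in Control and at 17.3, 19.7, 19.4 and 16.5 CPM in Mutant (log2 fold change -0.02, SE 0.11, adjusted p 0.936). Its groups overlapped throughout.

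Many carriers shared one order of the Mutant embryos. By enamel score the Mutant embryos ranked K14J26 (11.8), K14J29 (9.79), K14J30 (8.17) and K14J28 (6.94), and the Control embryos J6 (6.87), J5 (6.13), J3 (4.77) and J7 (4.73). The level in the Mutant embryos followed exactly this order for 14 of the 32 tested carriers (43.8%) and for 13.6% of all genes tested. These were Slc11a1, Slc20a2, Slc30a4, Slc30a7, Slc39a3, Slc39a4, Slc39a7, Slc39a9, Slc39a11, Slc39a13, Slc39a14, Slc41a1, Slc41a2 and Slc41a3. Over all 8 embryos, Slc41a2 and Slc39a13 were higher in each embryo than in the one with the next lower score, as were 0.689% of all genes tested. This ordering was looked at with the values known, and the carriers share their embryos, so the shares are descriptions without a test.

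K14J26 was the highest of all 8 embryos for 16 of the 32 carriers and for 27.8% of all genes tested. Its factor of scaling by TMM was also the lowest, 0.843 against 0.969 in K14J29 and 1.02 to 1.04 in the other embryos. K14J28 lay within the Control range for 15 carriers (46.9%) and for 39.8% of all genes. Of the 11 carriers that rose, 5 were highest in K14J26, 5 in K14J29, 1, Slc30a6, in K14J30 and 0 in K14J28. Over all genes tested, the highest Mutant embryo was K14J26 for 35.8%, K14J29 for 15.9%, K14J30 for 18.2% and K14J28 for 30.1%. All 12 carriers past the test were also past it without K14J26. The calls over all genes did not drop in that fit either, with 1667 higher and 1408 lower against 1631 and 1133 with all embryos. The carriers together took 0.281% to 0.297% of all counts in Control and 0.302% to 0.343% in Mutant.

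**Figure D4:**
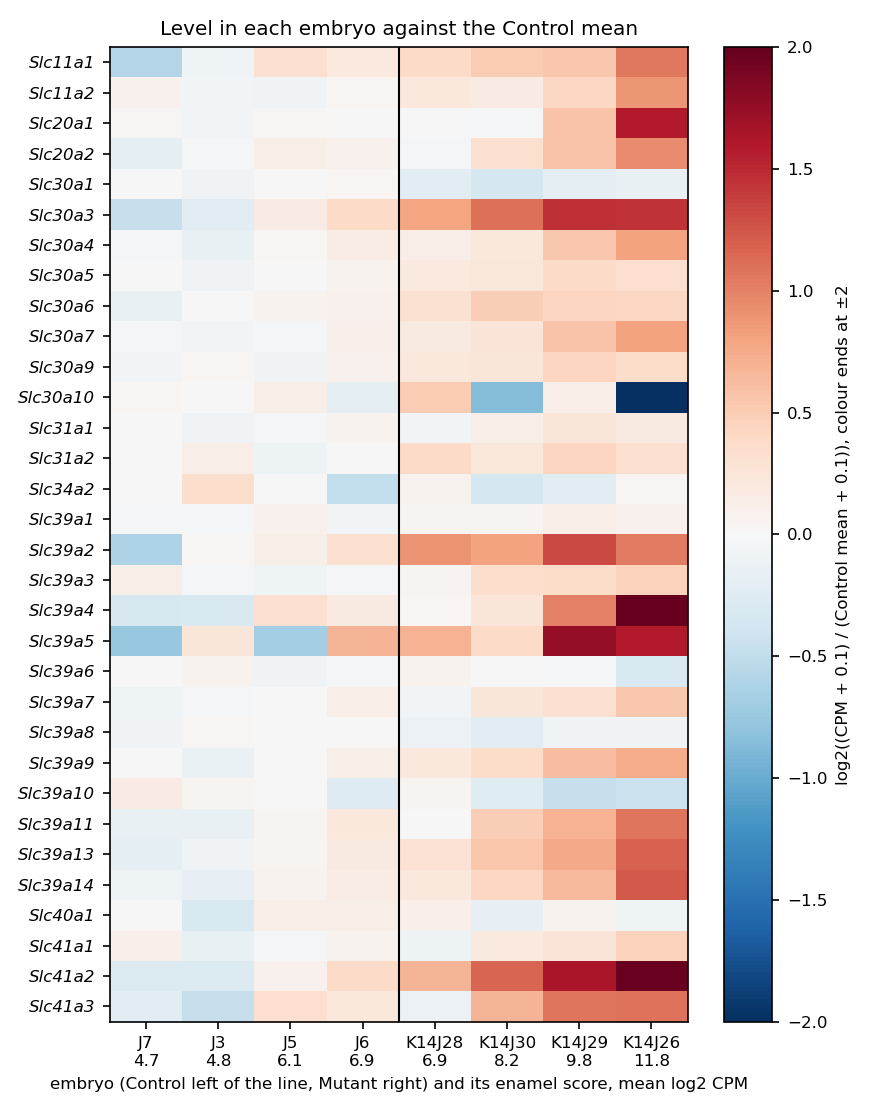
Level of each tested carrier (rows) in each embryo (columns, ordered by enamel score within each group) as log2 of (CPM + 0.1) over (Control mean + 0.1), with colours ending at 2 in either direction. For many carriers the red deepens from K14J28 to K14J26, while Slc30a1 and Slc39a8 are slightly blue in all 4 Mutant embryos.

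**Figure D5:**
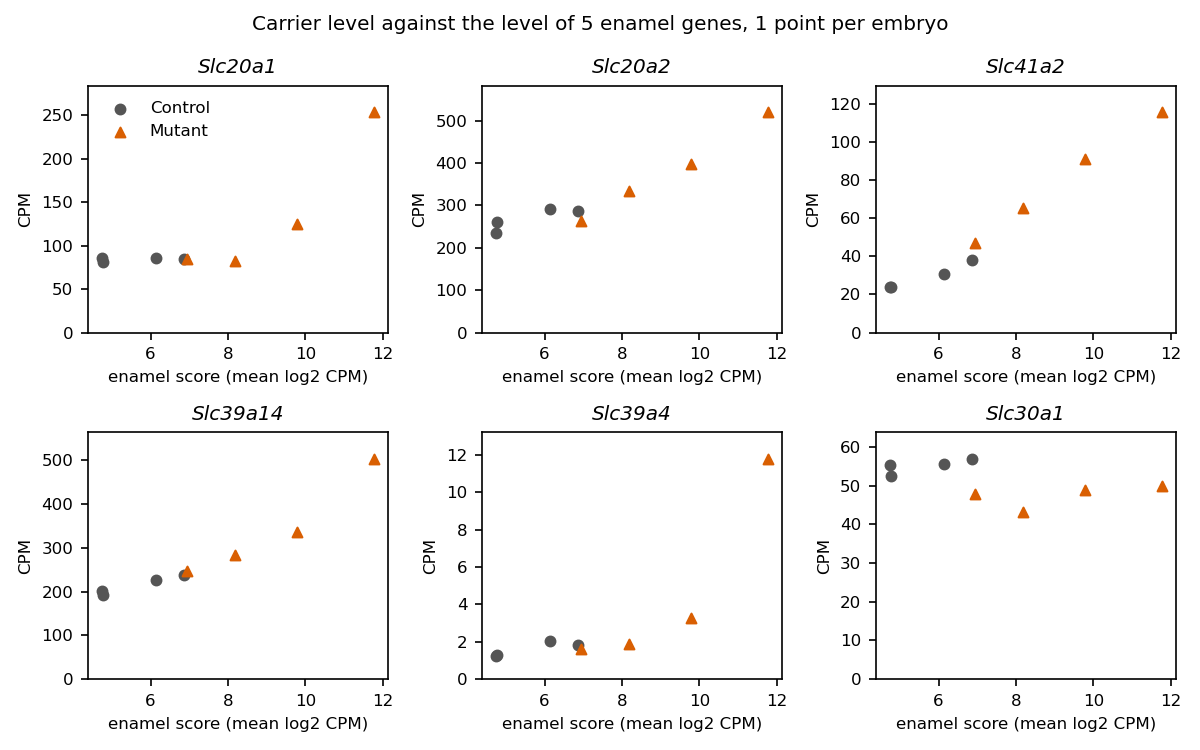
CPM of 6 carriers (linear axes from 0) against the enamel score, the mean log2 CPM of 5 enamel genes, with 1 point per Control (circles) or Mutant (triangles) embryo. Slc41a2 is higher in each embryo than in the one with the next lower score, Slc20a1 and Slc39a4 stand out in K14J26 at 253 and 11.8 CPM, and Slc30a1 is at most 49.9 CPM in the Mutant embryos, all of which have a score above those of Control.

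Of 63 related genes of metal and phosphate handling, 56 were tested, and 14 were higher (9.52% of all genes tested were) and 1 lower (6.61% of all genes), 26.8% in all against 16.1% of all genes. Like that of the carriers, this count rested on single embryos, with 1 call without K14J29 or J7, 2 without J3, 5 without J5 and 7 without J6, and 1 with the enamel score and 0 with the muscle score as a covariate. In the other direction, leaving out single embryos gave up to 22 calls, and DESeq2 on all embryos gave 20. The magnesium genes held 4 of 10 that rose, where 9.52% of all genes did. Trpm7, a magnesium channel with a kinase domain, was at 232, 319, 374 and 243 CPM in Control and at 914, 452, 734 and 534 CPM in Mutant (log2 fold change 1.17, SE 0.23, adjusted p 0.0167), and its Mutant embryos had the same order as those of Slc41a2. The magnesium transporters Mrs2, of mitochondria, Nipa1 and Cnnm4 rose by 0.48 (adjusted p 0.0342), 0.42 (adjusted p 0.029) and 0.51 (adjusted p 0.0448) on the log2 scale. The groups of Cnnm4 overlapped.

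Of 11 tested phosphate genes 4 rose and 1 fell, 45.5% in all against 16.1% of all genes called. Phex, a membrane peptidase of odontoblasts and osteoblasts, was at 63.4, 115, 161 and 76.9 CPM in Control and at 356, 178, 335 and 234 CPM in Mutant (log2 fold change 1.40, SE 0.31, adjusted p 0.022). The phosphate exporter Xpr1 was at 112, 130, 128 and 114 CPM in Control and at 200, 152, 182 and 156 CPM in Mutant (log2 fold change 0.51, SE 0.10, adjusted p 0.0157). Phospho1, which frees phosphate in matrix vesicles, and Slc37a4, which carries glucose-6-phosphate, rose by 0.67 (adjusted p 0.0418) and 0.61 (adjusted p 0.0409) on the log2 scale. Enpp1, which makes the mineralization inhibitor pyrophosphate, was at 132, 139, 137 and 145 CPM in Control and at 93.8, 112, 112 and 111 CPM in Mutant (log2 fold change -0.37, SE 0.07, adjusted p 0.0159). All Mutant embryos were lower.

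Of 4 zinc-buffering genes 1 rose, where 9.52% of all genes did. Mtf1, the transcription factor that senses zinc, rose by 0.45 on the log2 scale (SE 0.08, adjusted p 0.0117), from 11.4, 12.1, 12.1 and 11.7 CPM in Control to 15.8, 15.3, 16.6 and 16.8 CPM in Mutant. The metallothioneins Mt1, Mt2 and Mt3, which bind zinc, had log2 fold changes of -0.15, -0.52 and 0.52 with standard errors of 0.39, 0.43 and 0.67, and none passed the test. Of 19 tested iron genes 4 rose, 21.1% where 9.52% of all genes did, namely the ferrireductases Steap3 (0.72, adjusted p 0.0188) and Steap4 (0.81, adjusted p 0.0468), the ferritin receptor Ncoa4 (0.44, adjusted p 0.0308) and the ferroxidase Heph (0.58, adjusted p 0.0432), each on the log2 scale. The groups of Steap4 overlapped.

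Of 8 copper genes 1 rose, 12.5% where 9.52% of all genes did, the mitochondrial copper chaperone Cox17 (log2 fold change 0.47, SE 0.11, adjusted p 0.0238), which had 14.2 to 16.1 CPM in Control and 18.4 to 25.5 CPM in Mutant. Of 4 manganese and calcium genes, 0 passed edgeR's test, against 16.1% of all genes. At an unadjusted p under 0.05, where 34.9% of all genes lay, there was 1, the Golgi protein Tmem165 (log2 fold change 0.24, adjusted p 0.114).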

How the data were processed

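RNA was sequenced from the pooled left and right lower first molars of 8 embryos. The authors trimmed reads with Trimmomatic and aligned them with STAR to GRCm38. They deposited for each embryo the raw counts of reads per Ensembl gene (not normalized). The methods name GenomicRanges for the counting, and the submitters' processing notes name featureCounts and GRCm38.p3. How reads with several matches were treated is not given in the sources used here, and the labels and the methods name different RNA extraction kits. Gene names, positions and exon lengths came from GENCODE M21, which holds 42548 of the 43629 identifiers.

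The low-count filter of the study, 10 or more counts in 2 or more embryos of Control or of Mutant, left 17129 genes. Scaling by TMM and a quasi-likelihood fit were done with edgeR 4.0.16 (R 4.3.3), with no covariate and Benjamini-Hochberg adjustment. Embryos are the replicates. Counts differed beyond sampling noise in all 12 pairs of embryos of one group. Totals ran from 17327224 to 29792467 counts. Floors cover counting error only. In a simulation of 17129 genes with a 2-fold change set in 200, the test found 97.5% of the 200. Genes without a set change made up 5.34% of what it called. Both shares describe the simulated counts alone. Whether they hold for these embryos was not tested. Here the calls over all genes fell from 1631 higher and 1133 lower to 237 and 160 without K14J29.

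Carriers past the test or without overlap between the groups, and the most abundant of each family, are given per embryo, and so were other carriers whose values were known. Related genes are named where past the test, and some others with their values known. The carriers and gene lists were chosen with earlier results of these data known. Alternatives were other scalings, DESeq2 1.42.0, other count filters, covariates (enamel, muscle and Xist), the study's criteria and leaving out each embryo. Leaving out 2 embryos together (J6 and J7, with the highest muscle markers, or K14J28 and K14J29, with the highest Xist), and running the alternatives for the related genes, were chosen after seeing the data.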

Additional observations from a re-analysis of the deposited data

Results flagged for a closer look

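The level of Slc39a4 in Mutant embryo K14J26 (11.8 CPM) stood far from the other 3 Mutant embryos, which were at 1.63, 3.29 and 1.90 CPM. Its gap to the nearest of them, relative to the range of the group, was above Dixon's 95% critical value for 4 samples. It was the only such value among the 64 groups examined, the Control and the Mutant group of each of the 32 tested carriers, and chance gives about 1 in 20 groups. K14J26 also had the highest enamel score (11.8) and the lowest TMM factor (0.843), and the part of either in this value was not tested.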

How the results depend on the processing

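Of 228 values for the 12 carriers past the test under alternatives, 128 kept their direction and their side of the threshold, 99 lost the threshold and 1 turned sign. Against 11 higher and 1 lower carriers, library size alone gave 7 higher, DESeq2 gave 18 higher, and leaving out single embryos gave 0 to 20 higher and 0 to 2 lower. With edgeR, no carrier was higher or lower (0 and 0) with the enamel or the muscle score as a covariate or without both J6 and J7. There, in this order, 6, 15 and 16 of 32 carriers had an unadjusted p under 0.05, against 3603, 4007 and 3554 of 17129 genes. Without J6 and J7 only 7 genes in all were called. No carrier was lower (0) without the count filter, with Xist as a covariate, without both K14J28 and K14J29 or by the study's criteria. The median log2 fold change of 0.43 became 0.049 with the enamel score and stayed between 0.29 and 0.48 without single embryos. Signs turned with the enamel score for Slc20a1 (-0.48), Slc20a2 (-0.19), Slc30a4 (-0.064), Slc30a10 (0.90), Slc31a1 (-0.032), Slc34a2 (0.052), Slc39a4 (-0.88), Slc39a6 (0.16), Slc39a7 (-0.11), Slc39a10 (0.12), Slc39a11 (-0.13), Slc39a14 (-0.055), Slc41a1 (-0.11) and Slc41a3 (-0.15). They also turned for Slc39a1 with library size alone (-0.018), and for Slc40a1 with the muscle score (0.061) and without J6 and J7 (0.054). Without single embryos Slc34a2 ranged from -0.24 to 0.030, Slc40a1 from -0.10 to 0.029, Slc30a10 from -0.83 to 0.041 and Slc39a6 from -0.11 to 0.0076. Of the related genes, 15 passed the test, against 20 with DESeq2, 9 with library size alone, 1 with the enamel score, 0 with the muscle score or without J6 and J7 (edgeR) and 1 to 22 without single embryos. Among those named, signs turned with the enamel score for Mt1 (0.86), Mt2 (0.63), Heph (-0.016) and Tmem165 (-0.078) and for Mt3 with Xist (-1.11) and without both K14J28 and K14J29 (-0.90). Without single embryos Mt1 ranged from -0.62 to 0.11 and Mt3 from -0.76 to 0.83. The cause was not tested. Upper-quartile scaling moved the share of higher genes among all calls from 59.0% to 48.5%. The enamel score runs with genotype, so that its part and that of the genotype cannot be told apart. No paired analysis was possible because the embryo names of the groups share no number.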
